A study of Homo sapiens with 6 samples.

Results

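The genes described here are 38 interferon-stimulated effectors other than the OAS, IFIT and ISG15 systems, taken from a fixed list of gene symbols that was drawn up with earlier results of these data known. Of these, 37 had a row among the 15598 genes of the deposited count table, and IFI27 was not analysed here. All 37 passed the filter on low counts, so the tested genes and the measured genes are the same set.

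The 3 libraries of MHCC97H cells with a short hairpin RNA against HNRNPC (shHNRNPC) were set against 3 libraries of MHCC97H cells with a control hairpin (shcontrol). MHCC97H is an established liver cancer line selected for metastasis, and HNRNPC encodes hnRNP C, a nuclear RNA-binding protein that masks cryptic splice sites. The labels name 1 hairpin genotype, so effects of HNRNPC loss and of that hairpin cannot be told apart. The series design text calls the 3 replicates independent but does not say what was repeated, so the p-values measure the spread between these libraries.

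Interferons act through receptors that activate the JAK kinases and, through them, transcription factors of the STAT and IRF families. The resulting complex binds a promoter element called the interferon-stimulated response element and switches on a large set of genes. The effectors among them act at each step of infection. Membrane proteins block entry or release, GTPases and nucleotide-modifying enzymes block genome replication, ribonucleases destroy foreign RNA, and nuclear body proteins silence incoming genomes. Many are also transcribed at a low level without infection, including in tumour cells.

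Total counts lay between 16692497 and 17889820 in the shHNRNPC libraries and between 15563077 and 18328475 in the shcontrol libraries. The file names the shHNRNPC libraries SI_3, then SI_3_2 and SI_3_3, and the shcontrol libraries NC_3, then NC_3_2 and NC_3_3; values per library keep that order. The transcript of HNRNPC itself was at 61.4, 66.4 and 58.9 CPM (read counts scaled to the size of each library) in shHNRNPC, against 847, 854 and 856 CPM in shcontrol. Hepatocyte markers were close to absent, with a summed level of 0.627 to 1.24 CPM in shHNRNPC and 0.861 to 1.12 CPM in shcontrol over the 6 of 10 listed genes with a row. The epithelial keratins KRT8 and KRT18 made up nearly all of the epithelial marker sum, which was 1569 to 1589 CPM in shHNRNPC and 1374 to 1394 CPM in shcontrol. Leukocyte markers summed to 65.1 to 70.0 CPM in shHNRNPC and 42.3 to 49.2 CPM in shcontrol, nearly all of it CD68, a lysosomal protein. The T cell marker CD3E had 0 or 1 counts in every library. Fibroblast markers summed to 355 to 359 CPM in shHNRNPC and 434 to 441 CPM in shcontrol. Most of this was ACTA2, at 337 CPM in shHNRNPC and 417 CPM in shcontrol, while COL1A1 and PDGFRB were not called. Endothelial markers summed to 65.8 to 69.6 CPM in shHNRNPC and 53.8 to 55.5 CPM in shcontrol. Nearly all of it was EGFL7, at 66.4 CPM in shHNRNPC and 53.3 CPM in shcontrol, and the other endothelial markers had too few counts to be tested. Of the plasmacytoid dendritic cell markers TCF4 alone had a row, at 3.83 to 5.13 CPM in shHNRNPC and 7.93 to 8.93 CPM in shcontrol. The part of these lists in the results was not tested.

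Many of the members' promoters hold the sequence element through which interferon acts, and those stretches are shown first because the list is defined by that response. RefSeq promoter windows of 300 bases, build GRCh38.p14, were matched for 27 of the 37 genes. The core GAAANNGAAA, searched on both strands and so also as TTTCNNTTTC, was present in 16 of these 27 genes (59.3%), against 4.38% of all 27305 genes with a window. Counted by window, it was in 19 of 39 member windows (48.7%) and in 3.57% of all 35116 windows. The core of the gamma-activated site, TTCNNNGAA, which is its own reverse complement, was in 10 of 39 member windows (25.6%) and in 7.66% of all windows. The 2 cores overlapped in 4 member windows and in 22 windows overall. A match describes these letters and does not show binding.

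Where a gene had several cores, the one nearest to an annotated start is shown. The stretches are written in the direction of transcription, with the core in capitals. Of the 16 genes with the core, 9 are printed, chosen after their values were seen. The first 5 are all those that rose at least 2-fold in shHNRNPC cells, and the other 4 are the most abundant per length of those that rose less. C19orf66, EPSTI1, IFI44, IFI44L, LAP3, NMI and PLSCR1 also held the core.
RTP4, chr3:187368347-187368396, plus strand: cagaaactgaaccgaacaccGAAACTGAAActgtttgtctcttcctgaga
ISG20, chr15:88638927-88638976, plus strand: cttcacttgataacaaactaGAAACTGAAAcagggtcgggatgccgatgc
RSAD2, chr2:6877612-6877661, plus strand: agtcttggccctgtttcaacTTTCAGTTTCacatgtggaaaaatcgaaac
IFITM1, chr11:314014-314063, plus strand: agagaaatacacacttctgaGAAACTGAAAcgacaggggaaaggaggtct
IFI6, chr1:27672256-27672305, minus strand: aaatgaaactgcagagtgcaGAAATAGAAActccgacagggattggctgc
IFITM3, chr11:320866-320915, minus strand: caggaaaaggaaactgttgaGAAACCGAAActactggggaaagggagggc
MX1, chr21:41420549-41420598, plus strand: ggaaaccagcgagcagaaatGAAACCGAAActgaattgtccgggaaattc
BST2, chr19:17405725-17405774, minus strand: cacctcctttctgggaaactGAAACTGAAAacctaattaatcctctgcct
LGALS3BP, chr17:78979952-78980001, minus strand: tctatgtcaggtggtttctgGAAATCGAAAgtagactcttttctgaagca
In RTP4, ISG20, BST2 and IFITM1 the core reads GAAACTGAAA. In RSAD2 it lies on the opposite strand as TTTCAGTTTC. Distances are counted from the start annotated for each RefSeq promoter window. The core began 18 bases before it in RTP4, 69 in ISG20, 145 in RSAD2 and 6 in IFITM1. It began 93 bases before in IFI6, 35 in IFITM3, 124 in BST2 and 58 in LGALS3BP. In MX1 it lay just after such a start. The deposited gene positions give other starts. By them the printed cores of RTP4, ISG20, IFITM1, IFITM3 and LGALS3BP lie within the gene. Those of RSAD2, IFI6, MX1 and BST2 lie before it.

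Nearly all of these genes were higher in shHNRNPC cells. By edgeR's quasi-likelihood test, adjusted over all 11831 genes tested, 35 of the 37 were higher in shHNRNPC at an adjusted p under 0.05, where 29.8% of all tested genes were higher. None was lower, where 31.3% of all tested genes were lower. The count of 0 also held at an unadjusted p under 0.05 and by DESeq2 and limma-voom, whereas scaling by library size alone called 1 member lower. Since 3520 of the 11831 tested genes were higher and 3708 lower, size was examined as well. At least a 2-fold rise was called for 13 members, against 1.87% of all tested genes. Tested against a 1.5-fold change, 19 members were higher, against 1.83% of all tested genes. The median log2 fold change was 0.67 over the members and -0.0041 over all tested genes. In bulk RNA, more cells that express a gene and more RNA per cell cannot be told apart.

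**Figure D1:**
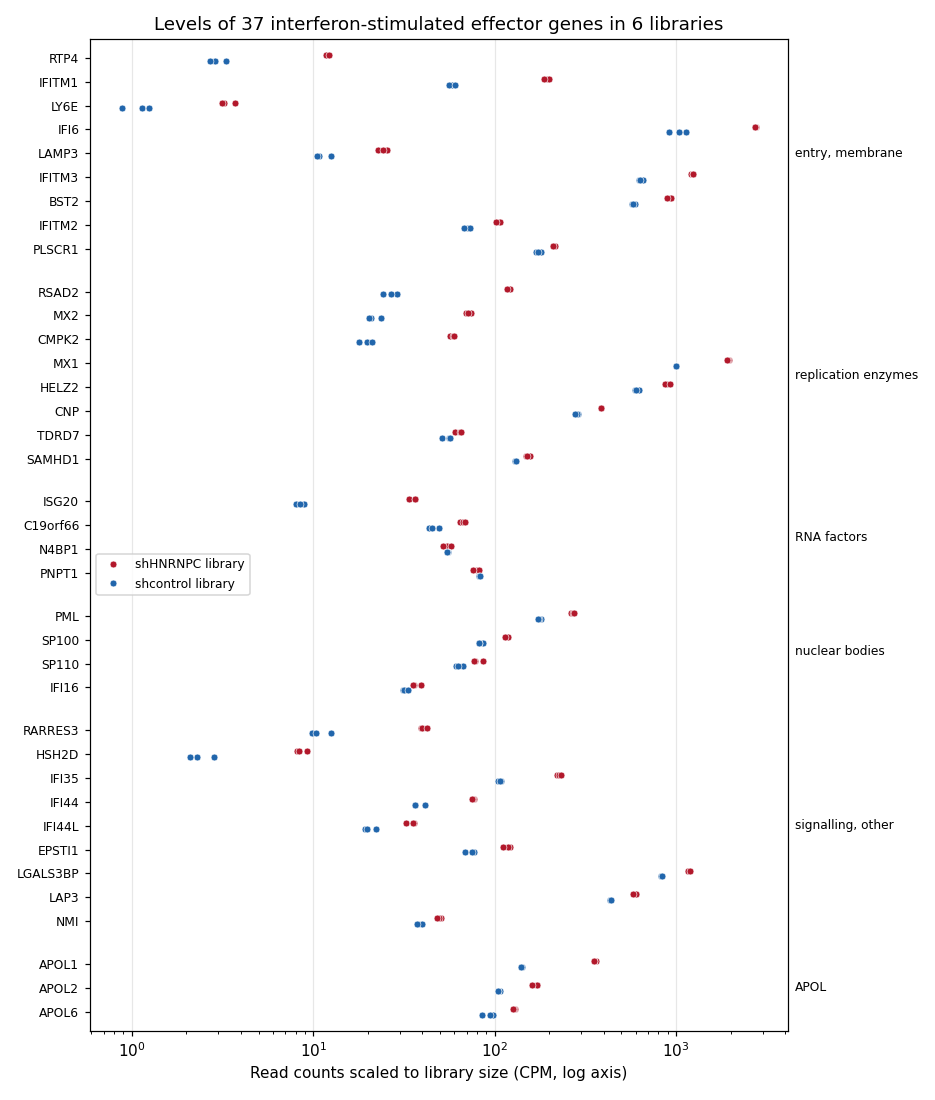
Level of each gene in each library, in CPM on a log axis, grouped by role; red points are the 3 shHNRNPC libraries and blue points the 3 shcontrol libraries. The red and blue points are separate for 35 genes and overlap for N4BP1 and PNPT1.

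The 3 shHNRNPC libraries lay above the 3 shcontrol libraries without overlap for 35 members, the same number as were called. Counted in either direction, higher or lower, groups did not overlap for 63.9% of all tested genes. The share with shHNRNPC above shcontrol alone was not counted. The coefficient of variation within a group had a median of 2.76% in shHNRNPC and 3.73% in shcontrol, and its highest value was 9.56% in shHNRNPC and 16.9% in shcontrol. No library was consistently high. SI_3, SI_3_2 and SI_3_3 were the highest of their group for 13, 13 and 11 members, and NC_3, NC_3_2 and NC_3_3 for 13, 14 and 10. In the same order they were the lowest for 11, 8 and 18 members in shHNRNPC and for 14, 13 and 10 in shcontrol, so SI_3_3 was most often lowest. Summed over the members, the level was 12819 ± 42.7 CPM in shHNRNPC and 7148 ± 137 CPM in shcontrol (SD, n = 3 each), a ratio of 1.79. These genes took 1.26% to 1.27% of all counts in the shHNRNPC libraries and 0.712% to 0.737% in the shcontrol libraries. IFI6, MX1, IFITM3 and LGALS3BP together made up 55.1% of the members' sum in shHNRNPC and 48.9% in shcontrol.

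Among proteins that act at membranes and on viral entry or release, all 9 measured genes rose, 5 of them at least 2-fold, with a median log2 fold change of 1.09. RTP4, a chaperone of membrane receptors that also binds flaviviral RNA, rose 4.06-fold, the most in this group. Its level was 11.9, 11.7 and 12.3 CPM in shHNRNPC, against 2.88, 3.29 and 2.69 CPM in shcontrol (log2 fold change 2.02, SE 0.135, adjusted p = 1.42e-17). RTP4 lies on chromosome 3, 187368332 to 187372076, in the deposited table.

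The IFITM proteins sit in the plasma membrane and endosomes and stop viral envelopes from fusing with them. Their 3 genes lie side by side on chromosome 11, with IFITM1 4.5 kb from each of the other two, and they rose by different amounts. IFITM1 had 195, 199 and 186 CPM in shHNRNPC, against 58.3, 56.0 and 60.4 CPM in shcontrol. The change was 3.31-fold (log2 fold change 1.73, SE 0.0379, adjusted p = 3.79e-36). IFITM3 had 1208, 1232 and 1247 CPM in shHNRNPC, against 657, 624 and 636 CPM in shcontrol, a 1.92-fold rise (adjusted p = 4.44e-36). IFITM2 was the least changed of the 3, at 104, 107 and 102 CPM in shHNRNPC and 71.0, 73.2 and 67.6 CPM in shcontrol, a 1.48-fold rise (adjusted p = 2.81e-16). The groups were separate for each gene. In GENCODE 29 the coding sequences of IFITM2 and IFITM3 are 93.9% identical, those of IFITM1 and IFITM3 87.5% and those of IFITM1 and IFITM2 85.4%. Exons of IFITM3 share 21.3% of their bases with an annotated noncoding RNA on the opposite strand. Exons annotated to IFITM1 and IFITM2 also share 351 bases. Counting could therefore split reads between these genes, and how much each gained is uncertain.

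IFI6, a small protein of the endoplasmic reticulum that blocks flavivirus replication, was the most abundant member per length. Per kilobase of its longest coding GENCODE 29 transcript it averaged 3258 ± 24.4 CPM in shHNRNPC and 1223 ± 136 CPM in shcontrol (SD, n = 3 each). In CPM it had 2764, 2728 and 2728 in shHNRNPC, against 1137, 910 and 1040.5 in shcontrol. The shcontrol libraries were more spread than the shHNRNPC libraries, with NC_3_2 lowest. The rise was 2.66-fold (log2 fold change 1.41, SE 0.0326, adjusted p = 2.27e-35). LY6E, a lipid-anchored surface protein that restricts coronavirus fusion, was the least abundant member on the same scale, at 2.37 ± 0.227 CPM per kilobase in shHNRNPC and 0.765 ± 0.130 CPM per kilobase in shcontrol. In CPM it had 3.22, 3.14 and 3.73 CPM in shHNRNPC and 0.881, 1.14 and 1.24 CPM in shcontrol. With so few reads its 3.08-fold rise had the widest error (log2 fold change 1.62, SE 0.241, adjusted p = 1.23e-07).

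LAMP3, a lysosomal membrane protein best known from mature dendritic cells, had 22.8, 25.4 and 24.1 CPM in shHNRNPC, against 12.6, 10.8 and 10.5 CPM in shcontrol. It rose 2.13-fold (adjusted p = 5.35e-15). BST2, or tetherin, which holds budding virions at the cell surface, rose 1.58-fold to 921 ± 24.9 CPM in shHNRNPC, against 582 ± 8.72 CPM in shcontrol. PLSCR1, a phospholipid scramblase, rose 1.22-fold, the smallest change among these membrane proteins (212 ± 2.26 CPM in shHNRNPC and 174 ± 5.42 CPM in shcontrol). BST2 exceeded the 1.5-fold test (adjusted p = 0.00212), while PLSCR1 did not. After correction for GC content and length the log2 fold change of BST2 was 0.42, which no longer exceeded 1.5-fold.

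**Figure D2:**
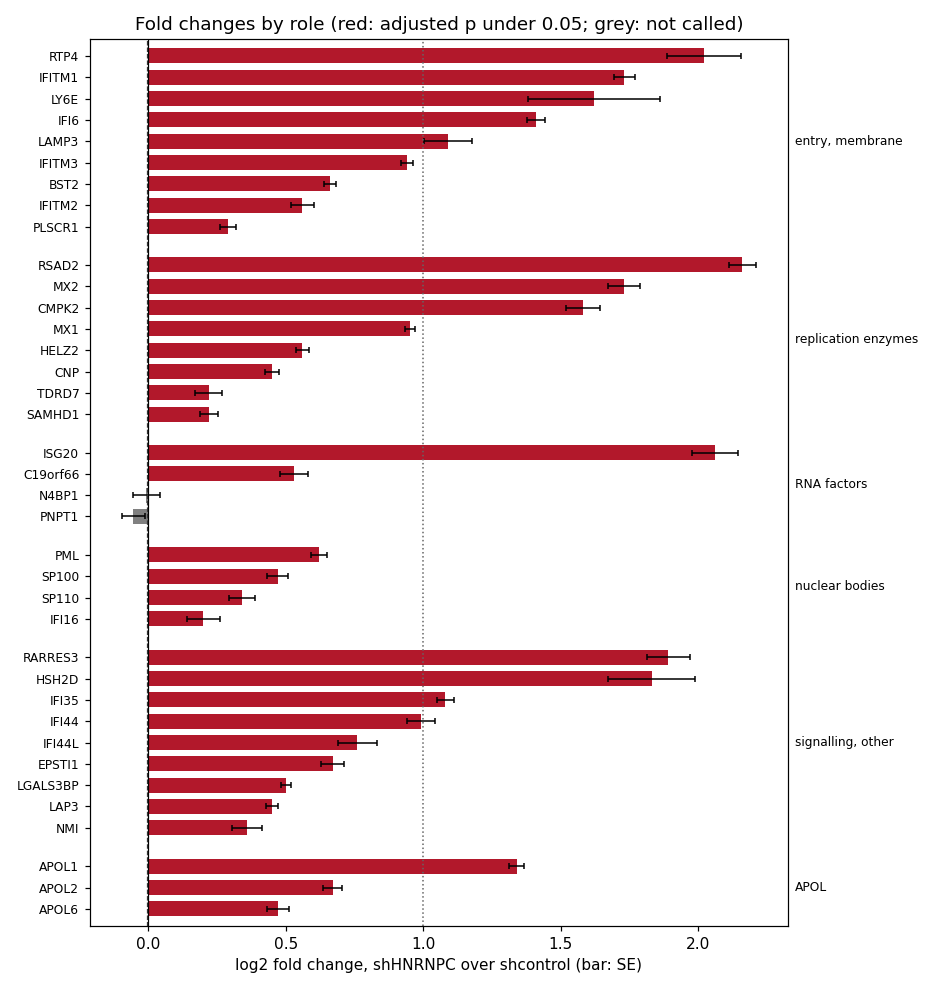
Fitted log2 fold change of each gene, shHNRNPC over shcontrol, by role; error bars are standard errors, the dotted line marks a 2-fold rise and the dashed line the median of all tested genes. RSAD2, ISG20 and RTP4 are above 2 on the log2 scale, whereas N4BP1 and PNPT1 (grey) are at -0.0077 and -0.055.

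All 8 genes for GTPases and enzymes that act on viral replication rose, 3 of them at least 2-fold, with a median log2 fold change of 0.76. RSAD2 encodes viperin, a radical enzyme that converts a ribonucleotide into a chain terminator of viral polymerases. It had 119, 122 and 117 CPM in shHNRNPC, against 24.4, 29 and 27 CPM in shcontrol. No other member rose as much (4.46-fold, log2 fold change 2.16, SE 0.0498, adjusted p = 2.27e-35), and it ranked 18 by fold change among all tested genes. CMPK2, a mitochondrial nucleotide kinase thought to feed viperin with its substrate, is its neighbour on chromosome 2, in the opposite direction and 12 kb away. It had 56.4, 58.9 and 59.8 CPM in shHNRNPC, against 19.9, 21.1 and 17.9 CPM in shcontrol. Its rise was 2.98-fold (log2 fold change 1.58, SE 0.0622, adjusted p = 6.28e-26). None of the 3 CMPK2 windows held the GAAANNGAAA core, whereas RSAD2 had the core printed above.

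The dynamin-like GTPases MX1 and MX2 lie 17.2 kb apart on chromosome 21 and point the same way. MX1, which traps viral ribonucleoproteins in the cytoplasm, was abundant in both groups, at 1953, 1939 and 1898 CPM in shHNRNPC and 996, 1005 and 994 CPM in shcontrol. It rose 1.93-fold (log2 fold change 0.95, SE 0.0184), with the smallest adjusted p of the members (2.18e-38). MX2, which acts at the nuclear pore against lentiviruses, had 74.3, 69.9 and 71.4 CPM in shHNRNPC, against 20.7, 20.3 and 23.5 CPM in shcontrol. It rose 3.33-fold (log2 fold change 1.73, SE 0.0582, adjusted p = 9.83e-29). The difference in fold change between the pair was not tested. Their coding sequences are 71.3% identical.

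The other enzymes changed less. HELZ2, a helicase and nuclear receptor coactivator, rose 1.47-fold to 893 ± 26.5 CPM in shHNRNPC, against 607 ± 19.3 CPM in shcontrol. CNP, a cyclic nucleotide phosphodiesterase, rose 1.37-fold (386 ± 0.842 CPM in shHNRNPC and 283 ± 5.79 CPM in shcontrol). SAMHD1, which destroys deoxynucleotides, rose 1.17-fold (152 ± 4.06 CPM in shHNRNPC and 130 ± 0.809 CPM in shcontrol, adjusted p = 1.09e-07). TDRD7, a tudor domain protein of RNA granules, rose 1.16-fold (63.4 ± 2.49 CPM in shHNRNPC and 54.5 ± 2.69 CPM in shcontrol, adjusted p = 1.27e-04). None of these exceeded a 1.5-fold change. In GENCODE 29, exons of SAMHD1 share 10.3% of their bases with a gene on the opposite strand, and those of CNP 5.4%.

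The RNA-degrading and RNA-binding factors were the only group of roles with members that did not pass. ISG20, an exonuclease of single-stranded RNA, had 33.6, 36.5 and 36.2 CPM in shHNRNPC, against 8.05, 8.92 and 8.5 CPM in shcontrol. Its rise was 4.18-fold, second among the members (log2 fold change 2.06, SE 0.0821, adjusted p = 9.39e-26). C19orf66, or Shiftless, an inhibitor of programmed ribosomal frameshifting, rose 1.45-fold (66.6 ± 2.04 CPM in shHNRNPC and 46.0 ± 2.92 CPM in shcontrol, adjusted p = 9.51e-13). Its exons share 16.9% of their bases with an annotated antisense RNA, and without knowledge of strand in the counting the reads of both cannot be told apart.

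N4BP1, a ribonuclease that attacks human immunodeficiency virus RNA, had 54.4, 57.8 and 52.0 CPM in shHNRNPC, against 55.6, 54.5 and 54.9 CPM in shcontrol. The values overlapped, and the log2 fold change was -0.0077 (SE 0.0495, adjusted p = 0.902). PNPT1, the mitochondrial polynucleotide phosphorylase, had 79.9, 82.5 and 76.2 CPM in shHNRNPC, against 82.5, 82.2 and 83.1 CPM in shcontrol. Here SI_3_2 reached the shcontrol level and the other two shHNRNPC libraries lay below it (log2 fold change -0.055, SE 0.0414, adjusted p = 0.248). The call for PNPT1 depended on the scaling. It was called lower when scaled by library size alone (log2 fold change -0.095, adjusted p = 0.0429) and higher after correction for transcript GC content and length (log2 fold change 0.20, adjusted p = 2.51e-05). No GAAANNGAAA core was found in the promoter window of either gene.

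The nuclear sensor and nuclear body genes rose modestly, all 4 of them and none by 2-fold, with a median log2 fold change of 0.40. PML, the scaffold of the nuclear bodies that bear its name, had 264, 272 and 274 CPM in shHNRNPC, against 179, 175 and 173 CPM in shcontrol. It rose 1.54-fold (adjusted p = 1.11e-23), the most in this group. SP100, another constituent of these bodies that silences viral genomes, rose 1.38-fold (116 ± 2.54 CPM in shHNRNPC and 83.8 ± 2.38 CPM in shcontrol). SP110, a related nuclear protein encoded 196.3 kb away on chromosome 2, rose 1.26-fold (80.5 ± 5.32 CPM in shHNRNPC and 63.7 ± 2.83 CPM in shcontrol). SP110 exons share 18.4% of their bases with an annotated antisense RNA. IFI16, a sensor of nuclear and cytosolic DNA, had 39.5, 35.9 and 35.5 CPM in shHNRNPC, against 31.1, 31.8 and 33.1 CPM in shcontrol. Its rise of 1.15-fold was the smallest of those called (log2 fold change 0.20, SE 0.0614, adjusted p = 0.00368). SI_3 was the highest of its 3 libraries, and without it the adjusted p was 0.0502.

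Regulators of signalling and less characterised cytoplasmic proteins rose in all 9 cases, 3 of them at least 2-fold, with a median log2 fold change of 0.76. RARRES3, a phospholipase induced by retinoids and interferon, had 39.5, 39.7 and 42.3 CPM in shHNRNPC, against 12.5, 9.87 and 10.4 CPM in shcontrol. The change was 3.71-fold (log2 fold change 1.89, SE 0.0788, adjusted p = 5.30e-25). HSH2D, an adaptor with an SH2 domain best known from blood cells, had 9.24, 8.10 and 8.31 CPM in shHNRNPC, against 2.29, 2.85 and 2.10 CPM in shcontrol. It rose 3.56-fold (log2 fold change 1.83, SE 0.158, adjusted p = 7.23e-14). Beside this rise, CD68 of the leukocyte list was higher (64.8 ± 2.12 CPM in shHNRNPC and 43.2 ± 3.66 CPM in shcontrol, log2 fold change 0.58, adjusted p = 3.15e-13), CD14 and ITGAM were not called, and CD3E was at 0 or 1 counts. The part of such cells in the rise was not tested.

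IFI35 and NMI encode partner proteins that bind each other and tune innate signalling, and they changed unequally. IFI35 had 222, 225 and 231 CPM in shHNRNPC, against 104, 109 and 107 CPM in shcontrol, a 2.12-fold rise (adjusted p = 3.46e-31). NMI had 50.6, 49.3 and 47.9 CPM in shHNRNPC, against 38.0, 40.0 and 37.3 CPM in shcontrol, a 1.28-fold rise (adjusted p = 1.63e-07). Both were separate between groups. After correction for GC content and length their log2 fold changes were 0.86 and 0.53. The difference between the 2 genes was not tested.

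IFI44 and IFI44L, adjacent on chromosome 1 with 3.7 kb between them, encode related cytoplasmic proteins. IFI44 had 77.0, 75.7 and 74.9 CPM in shHNRNPC, against 36.3, 36.5 and 41.1 CPM in shcontrol, a 1.99-fold rise (adjusted p = 1.03e-21). IFI44L had 32.5, 35.8 and 35.3 CPM in shHNRNPC, against 19.2, 22.1 and 19.9 CPM in shcontrol, a 1.70-fold rise (adjusted p = 4.61e-13). After correction for GC content and length their log2 fold changes were 1.20 and 1.16. EPSTI1, a protein first found in breast cancer cells grown with stroma, rose 1.59-fold (117 ± 4.85 CPM in shHNRNPC and 73.5 ± 4.29 CPM in shcontrol). LGALS3BP, a secreted glycoprotein that binds galectins, rose 1.41-fold (1169.9 ± 16.8 CPM in shHNRNPC and 829 ± 4.58 CPM in shcontrol). LAP3, a leucine aminopeptidase, rose 1.36-fold (593 ± 13.4 CPM in shHNRNPC and 435 ± 3.85 CPM in shcontrol).

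The apolipoprotein L genes on chromosome 22 all rose, 1 of them at least 2-fold. APOL1, a secreted protein that lyses trypanosomes, had 363, 353 and 353 CPM in shHNRNPC, against 139, 142 and 140 CPM in shcontrol. It rose 2.54-fold (log2 fold change 1.34, SE 0.0274, adjusted p = 1.89e-37). APOL2, an intracellular relative transcribed in the opposite direction 13.1 kb away, had 172, 171 and 161 CPM in shHNRNPC, against 107, 104 and 104 CPM in shcontrol, a 1.60-fold rise. APOL6, 557.8 kb from APOL2 and linked to cell death, had 130, 128 and 126 CPM in shHNRNPC, against 85.1, 98.2 and 94.5 CPM in shcontrol, a 1.38-fold rise (adjusted p = 3.25e-14). NC_3 was the lowest shcontrol library for APOL6. The coding sequences of APOL1 and APOL2 are 79.4% identical, so some of their reads may be hard to assign.

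**Figure D3:**
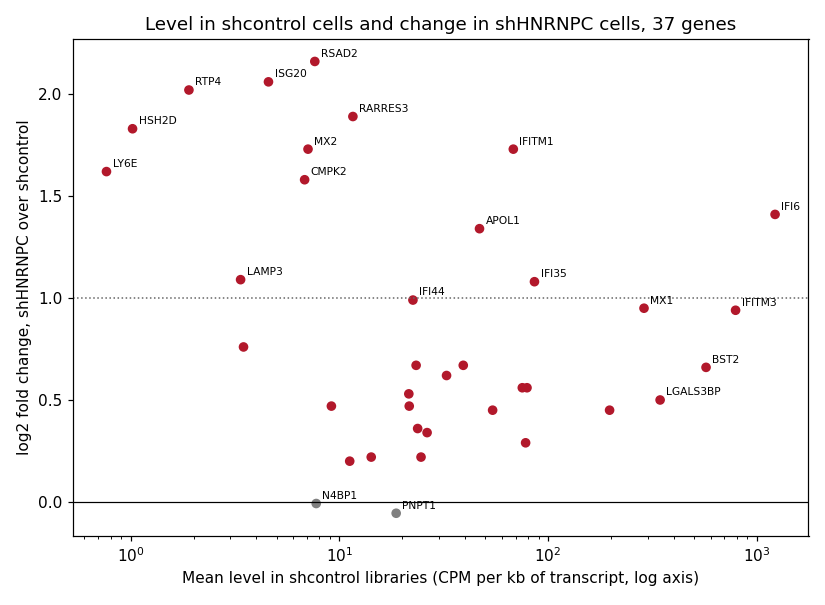
Mean level in the shcontrol libraries (CPM per kilobase of GENCODE 29 transcript, log axis) against the log2 fold change, shHNRNPC over shcontrol, 1 point per gene; grey points were not called. Genes above the dotted 2-fold line run from LY6E at 0.765 to IFI6 at 1223 CPM per kilobase in shcontrol. IFI35, at 86.0 CPM per kilobase, is the next below IFI6 among them.

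Levels per length ranged from 2.37 (LY6E) to 3258 (IFI6) CPM per kilobase in shHNRNPC cells and from 0.765 to 1223 CPM per kilobase, for the same pair of genes, in shcontrol cells. Next below IFI6 came IFITM3, at 1521 ± 24.4 CPM per kilobase in shHNRNPC and 791 ± 20.7 in shcontrol. BST2 followed at 904 ± 24.4 CPM per kilobase in shHNRNPC and 571 ± 8.56 in shcontrol. MX1 was at 556 ± 8.25 CPM per kilobase in shHNRNPC and 288 ± 1.61 in shcontrol, and LGALS3BP at 486 ± 6.99 in shHNRNPC and 344 ± 1.90 in shcontrol, so these 2 genes stood in the opposite order in the 2 groups. Rises of at least 2-fold occurred at both ends of this range, but at the high end for IFI6 alone. IFITM3, BST2, LGALS3BP and MX1 rose 1.92-, 1.58-, 1.41- and 1.93-fold. Next below IFI6 in shcontrol level among the genes that rose at least 2-fold was IFI35, at 86.0 CPM per kilobase. Across the 37 genes, Spearman's rho between the shcontrol level per kilobase and the log2 fold change was -0.279, against 0.114 across all tested genes. Both measures use the shcontrol libraries, and genes are not independent replicates, so this is a description only.

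**Figure D4:**
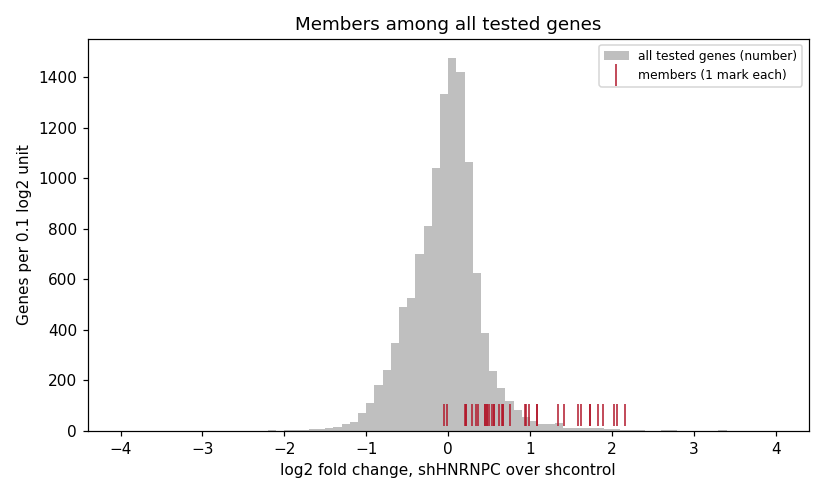
Distribution of the fitted log2 fold change over 11831 tested genes (grey bars, genes per 0.1 log2 unit), with 1 red mark for each of the 37 interferon-stimulated effector genes. The marks run from -0.055 to 2.16, with a median of 0.67.

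Among the matched genes, the response element core was found with larger and smaller rises alike. MX2, RARRES3, HSH2D, LY6E, APOL1 and LAMP3 also rose at least 2-fold but had no matched window. IFITM2, PML, APOL2 and APOL6 had none either. It was present in 5 of the 7 matched genes that rose at least 2-fold and in 11 of the 20 other matched genes. Among the matched genes that rose without it were CMPK2, IFI35, HELZ2, CNP, SAMHD1, SP100, SP110, TDRD7 and IFI16. Other starts or elements outside these windows were not examined. Transcript GC content and length also moved with some values. After correction for both, 36 members were higher and 0 lower, and the log2 fold change was 0.31 for IFITM2, 0.32 for LGALS3BP, 0.40 for IFI16, 0.42 for BST2, 0.50 for PLSCR1, 0.85 for APOL6 and 1.16 for IFI44L, against 0.56, 0.50, 0.20, 0.66, 0.29, 0.47 and 0.76 as counted. Under that correction APOL2 and BST2 no longer exceeded a 1.5-fold change, and APOL6 and EPSTI1 did. IFI35 was no longer at least 2-fold higher, and IFI44 and IFI44L were. The part of GC content and length in the changes as counted was not tested further.

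Upstream of these effectors, a list of 22 genes for interferons, receptors, kinases, transcription factors and inhibitors was examined; 21 had a row and 15 passed the filter on low counts. Of these 15, 8 rose, where 29.8% of all tested genes were higher, and 4 fell, where 31.3% were lower; the share that fell is near that background. IFNL1 among the 8 and IFNLR1 among the 4 passed the filter only through the group where each was higher. The median log2 fold change of the 15 was 0.33. The transcription factor STAT2 rose 1.42-fold. IRF1, an activator of many of the same promoters, rose 1.83-fold (85.8 ± 3.27 CPM in shHNRNPC and 46.7 ± 2.19 CPM in shcontrol). Of the inhibitors on the list, USP18, SOCS1 and SOCS3 were higher, PTPN2 and PIAS1 were lower, and PTPN6 had too few counts to be tested. USP18, which blocks the type I receptor, rose 2.56-fold (198 ± 7.55 CPM in shHNRNPC and 77.4 ± 0.880 CPM in shcontrol), and SOCS1, an inhibitor of JAK kinases, rose 2.09-fold (12.5 ± 0.512 CPM in shHNRNPC and 6.0 ± 0.547 CPM in shcontrol).

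The receptor chains and kinases tested were IFNAR1, IFNAR2, IFNLR1, JAK1 and TYK2, too few to set against the background shares. IFNAR1, a chain of the type I interferon receptor, fell to 28.1 ± 1.09 CPM in shHNRNPC, against 37.8 ± 1.59 CPM in shcontrol (log2 fold change -0.43, adjusted p = 6.49e-08). IFNLR1, the lambda interferon receptor, was called lower, at 0.643 ± 0.182 CPM in shHNRNPC and 1.44 ± 0.302 CPM in shcontrol (adjusted p = 0.00360). It had only 14, 9 and 10 counts in shHNRNPC and 23, 28 and 22 counts in shcontrol. IFNLR1 passed the filter on low counts only through the shcontrol libraries, where it was higher, so no fall is drawn from this call. IFNAR2, JAK1 and TYK2 were not called, with adjusted p-values of 0.812, 0.0715 and 0.979. PTPN2 and PIAS1, a phosphatase and a ligase that restrain STAT signalling, fell by 0.47 and 0.40 on the log2 scale.

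The interferon genes themselves were scarcely read. IFNL1, a lambda interferon, had 27, 31 and 17 counts in the shHNRNPC libraries, against 1, 11 and 10 counts in the shcontrol libraries, and was called higher (3.35-fold, adjusted p = 2.96e-04). NC_3 held the single count. IFNL1 passed the filter on low counts only through the shHNRNPC libraries, where it was higher, so no rise is drawn from this call. IFNB1, the beta interferon, had 9, 10 and 9 counts in shHNRNPC and 2, 2 and 3 counts in shcontrol, which was too few for the filter, so it was not tested. IRF7 had 4, 0 and 2 counts in shHNRNPC and 3, 1 and 2 counts in shcontrol. Whether secreted interferon acted on these cells was not measured.

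The authors' deposited table also gives an adjusted p under 0.05 and a positive log2 fold change for 35 of the 37 members and a negative one for 0. Its log2 fold changes differ from those given here by at most 0.0108.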

How the data were processed

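RNA from MHCC97H cells was sequenced in 3 shHNRNPC and 3 shcontrol libraries, made with an NEBNext Ultra kit per the labels' protocols. STAR, HTSeq (0.6.0) and DESeq2 are listed in the submitters' processing notes. Genome build, annotation and use of strand: not given in the sources used here. Unnormalised read counts were deposited by the authors, 1 whole number for each gene in each library, and were the values tested. The authors' table also holds their log2 fold change and p-value for each gene, raw and adjusted. Headers name a library's group but carry no replicate number from the titles, so each was used only as a member of its group, and 1 measure, the counts, was kept. The deposited FPKM are among 24 columns of per-library values on which no result here rests. They do not follow from the counts for part of the genes, so the authors may have counted reads in another way for them. A limma fit to the FPKM, made after seeing the data and then set aside, called fewer members at least 2-fold higher and gave a lower median.

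Counts were analysed in R 4.3.3 with edgeR 4.0.16 (filterByExpr by group, TMM scaling, glmQLFit and glmQLFTest), with Benjamini-Hochberg adjustment over all tested genes and a threshold of 0.05. A second test, glmTreat, asked whether a change exceeded 1.5-fold. Each standard error was the log2 fold change divided by the root of its F statistic. Levels are CPM over the TMM-scaled library size; levels per kilobase divide these by the longest coding transcript in GENCODE 29. The fit was also run on simulated counts with the same dispersion for every gene and few genes changed. Most tested genes were called in these data, so that run does not test the scaling or the calls here. Alternatives were other scalings, other filters, DESeq2 1.42.0, limma 3.58.1 (voom), each library left out, a block on the suffix that headers share across groups (added after seeing the data), and offsets that remove each library's trend on transcript GC content and length (mgcv 1.9.3, both found for 100% of tested genes). Members, lists, roles and tests were chosen with earlier results of these data known. Every member was named. Of the upstream genes, those that fell or did not pass and the 4 with the largest fold change were to be named; STAT2, SOCS3, PTPN6, IFNB1 and IRF7 were named besides, after their values were seen. Promoter windows came from RefSeq (GRCh38.p14). Coding sequences, not proteins, were compared between neighbours.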

Additional observations from a re-analysis of the deposited data

How the results depend on the processing

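Under all 15 alternatives run on the counts, the number of members called higher lay between 34 and 36. The number at least 2-fold higher stayed within 1.5 times of 13 under all of them. With each library left out in turn, the members called higher numbered 34 to 35, those called lower 0, those at least 2-fold higher 13 to 14, those above a 1.5-fold change 17 to 19, and the median log2 fold change was 0.657 to 0.701. Scaling by library size alone moved the median log2 fold change of all tested genes to -0.044 and that of the members to 0.627, and called 1 member, PNPT1, lower. The sign of N4BP1 turned to 0.0069 under upper-quartile scaling and 0.0185 after the GC and length correction, and ran from -0.049 to 0.029 with a library left out, never past the threshold. PNPT1 turned to 0.198 after the GC and length correction. With these and the lost call of IFI16 without SI_3 (adjusted p = 0.0502) as the exceptions, 549 of 555 values of single members kept their direction and their side of the threshold. The cause of each change was not tested. A block on the replicate numbers in the titles was not fitted, since the column names do not carry them. Column names do share suffixes across groups, and a replicate block on the suffix, added after seeing the data, gave 35 members higher, 0 lower, 13 at least 2-fold higher, 19 above 1.5-fold and a median of 0.6664. Deviations of libraries with the same suffix correlated at -0.0414, 0.00839 and -0.0432 over genes, below the 0.1 taken here to show pairing. Protein identity was not computed, and coding sequences were compared instead. Low depth limits LY6E, HSH2D and RTP4 the most, since they have the fewest reads.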
